A study of Mus musculus with 24 samples.

Results

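The genes described here encode the nuclear subunits of mitochondrial complex I (NADH:ubiquinone oxidoreductase) and proteins that assemble it. They were chosen by name, as every row of the deposited table whose mouse symbol begins with Nduf, pseudogene rows (-ps) aside, which gave 45 of 32544 rows. All 45 exceeded 1 CPM (counts per 1000000 reads) in at least 3 mice, as did 16162 genes in the whole table. By role they were 7 core subunits, 9 accessory subunits of the peripheral arm, 9 of the proximal and 10 of the distal membrane arm, the acyl carrier subunit Ndufab1, 7 assembly factors and the 2 genes of the Ndufa4 family. Ndufb1 and Ndufaf8 were not analysed here.

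Polyadenylated RNA came from snap-frozen inguinal mammary glands of mice on a BL/6 background with the genotypes C57 and NZB, names that are used for animals carrying the mitochondrial DNA of those strains. Each of the 8 groups held 3 mice, and a genotype had 4 of them: not lactating, and at day 8, 14 or 21 of lactation. The tissue was whole gland, so every value is an average over epithelium, fat, stroma and blood cells. Nothing in the labels links a mouse of one group to a mouse of another. The p-values rest on the spread between mice within groups, pooled over the 8 groups with a weight for each group.

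Complex I oxidises NADH from fuel breakdown, passes the electrons along a flavin and iron-sulphur clusters to ubiquinone, and pumps protons across the inner mitochondrial membrane. The core subunits of the peripheral arm, all nuclear, hold the redox centres, while the core subunits of the membrane arm are encoded by mitochondrial DNA. Accessory subunits surround that core and are needed for its assembly or stability, and assembly factors help to build the complex without remaining in it. The secretory cells of a lactating gland are rich in mitochondria, which supply energy and precursors for milk lipid, lactose and protein.

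Milk protein mRNA made the scale matter for all 45 genes. The 17 milk protein genes took 0.470 to 0.487% of reads in non-lactating C57 mice and 0.988 to 1.97% in non-lactating NZB mice, against 61.7 to 76.1% in the lactating groups other than NZB day 21, which had 18.0 to 30.3%. Levels below are therefore CPM of the remaining genes, rescaled to the same total. Changes are differences of log2(CPM + 1), which understates the change of a low gene, with the standard error from limma and p-values adjusted by Benjamini-Hochberg over 16145 genes. Mean depth per mouse was 7031812 to 24253128 reads. The non-lactating C57 mouse 3 carries conflicting genotype labels and was kept as C57, as titled. Gm29216 reached 3591 CPM in it, 268 to 3591 CPM over the 12 C57 mice and 0 CPM in all 12 NZB mice.

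The tissue also changed in makeup between groups. The summed level of 10 white adipocyte markers (among them Adipoq and Plin1) was 6028 to 11083 CPM in non-lactating C57 and 4672 to 13090 CPM in non-lactating NZB mice, 755 to 1424 CPM in both genotypes on days 8 and 14 and in C57 on day 21, and 1491 to 4139 CPM in NZB mice on day 21. For 8 markers of luminal secretory epithelium (such as Elf5 and Krt8) the sums were 546 to 1196 CPM and 81.5 to 328 CPM in the non-lactating C57 and NZB groups and 1365 to 2068 CPM in all lactating groups. The 6 macrophage markers summed to 807 to 1486 CPM in NZB mice on day 21, against 82.3 to 740 CPM in the other groups. For 6 fibroblast markers the sums were 2088 to 7674 CPM before lactation, 463 to 901 CPM in the lactating groups other than NZB day 21 and 921 to 2167 CPM there. The 8 brown adipocyte markers, of which 5 passed the filter on low values, summed to 15.9 to 68.9 CPM before lactation, 563 to 1321 CPM in those same lactating groups and 64.5 to 102 CPM on NZB day 21. Nearly all of the lactating sum was Cidea, at 554 to 1307 CPM, while Ucp1, the defining gene of that list, was at most 0.605 CPM in any lactating mouse. The part of these shifts in the results below was not tested, and fewer cells of a type and less RNA per cell cannot be told apart in such tissue.

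Per kilobase of transcript, the levels of the 45 genes spanned a wide range. The highest mean over groups belonged to Ndufc2, a small membrane-arm subunit, at 169 CPM per kilobase. Ndufv3 followed at 115, Ndufa4 at 92.5, Ndufa1 at 89.1 and Ndufa7 at 69.1 CPM per kilobase. Assembly factors were all low on this scale, from 2.35 for Ndufaf5 to 5.32 for Ndufaf7, and the lowest of the 45 was Ndufa4l2 at 1.45 CPM per kilobase.

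The summed level of the 45 genes, without milk proteins in the total, was higher on day 8 than before lactation in C57 mice. In NZB mice it was lower in every lactating group than before lactation, most so on day 21, but without Ndufb2 these groups overlapped. It was 1115 to 1284 CPM in non-lactating C57 mice, 1400 to 1459 CPM on day 8, 1066 to 1286 CPM on day 14 and 1028 to 1329 CPM on day 21. In NZB mice it was 1426 to 1654 CPM before lactation, 1346 to 1399 CPM on day 8, 1236 to 1395 CPM on day 14 and 966 to 1057 CPM on day 21. C57 day 8 lay above non-lactating C57, and NZB day 21 lay below all other groups except C57 day 21, which it overlapped. Without Ndufb2, the NZB sums were 989 to 1403 CPM before lactation and 1221 to 1271 CPM on day 8. They were 1106 to 1227 CPM on day 14 and 859 to 1007 CPM on day 21. C57 day 8 (1239 to 1375 CPM) still lay above non-lactating C57 (931 to 1190 CPM) without that gene. On the deposited scale, where milk protein mRNA is part of the total, the sums of all 45 genes fell from 1110 to 1278 CPM before lactation to 343 to 407 CPM on day 8 in C57, and were 678 to 792 CPM in NZB mice on day 21.

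**Figure D1:**
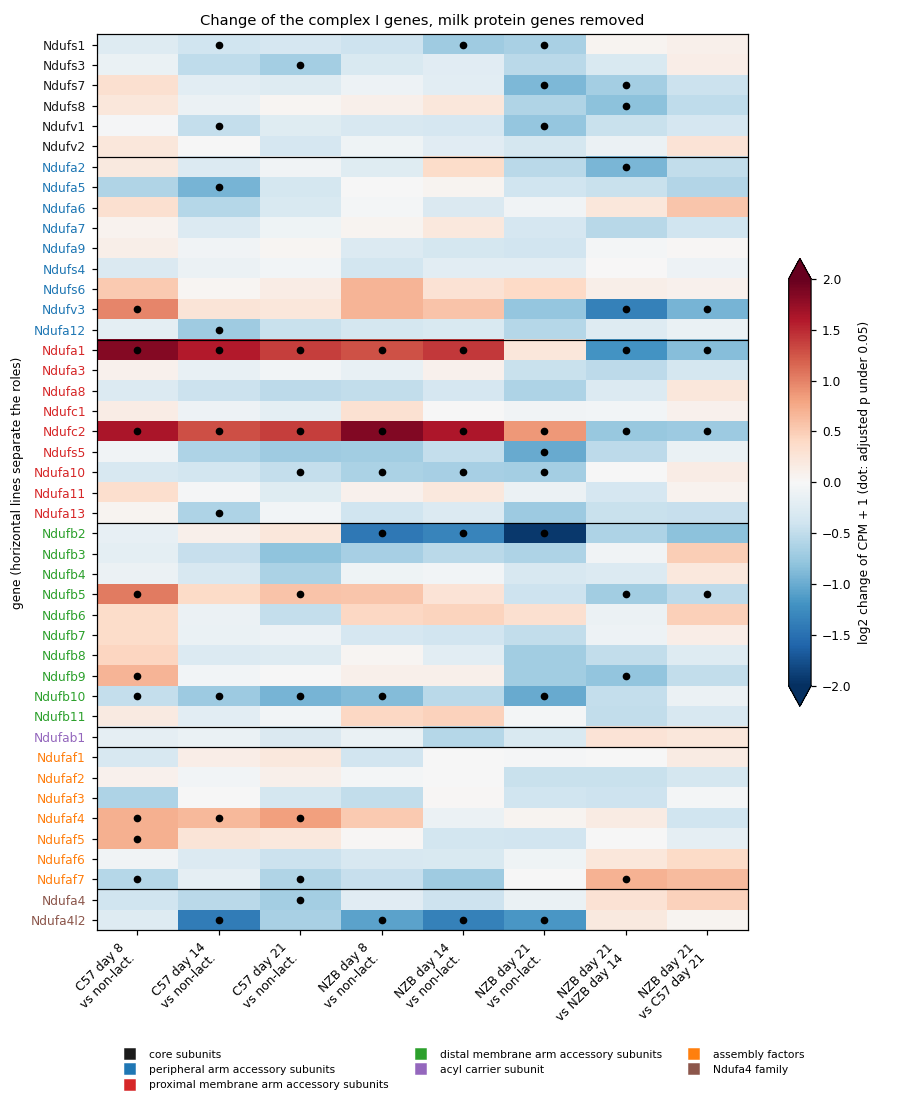
Heat map of the change of 44 of the 45 genes (rows, grouped by role; colour is the log2 change of CPM + 1 without milk protein genes, red higher and blue lower) in 8 comparisons (columns), with a dot for adjusted p under 0.05. Ndufc2 is higher in all 6 comparisons with non-lactating mice and Ndufa1 in 5 of them, while 23 genes have no dot in those columns; on the deposited scale the calls there were all lower.

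The question put to these genes was which of them changed from the non-lactating to the lactating gland in each genotype. Of the 45, 7 were called higher in at least 1 of the 6 comparisons, 15 were called lower in at least 1, none in both directions, and 23 in none. In C57 mice, 7 rose and 2 fell on day 8, which is 20.0% of the 45 against 51.6% of all genes called (14.8% higher and 36.8% lower). On day 14, 3 rose and 7 fell (41.1% of all genes were called, 14.6% higher and 26.5% lower), and on day 21, 4 rose and 5 fell (38.8% of all genes, 13.4% higher and 25.4% lower). In NZB mice, 2 rose and 4 fell on day 8 (39.6% of all genes, 12.5% higher and 27% lower), 2 rose and 4 fell on day 14 (36.6%, with 12.7% and 23.9%), and 1 rose and 9 fell on day 21 (23.4%, with 12.9% and 10.5%). The called share of the 45 was 13.3 to 22.2% in these 6 comparisons, below the share of all genes in 5 and near it on NZB day 21. By direction the split there was unlike that of all genes, with 9 of the 45 lower against 10.5% and 1 higher against 12.9%.

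The typical size of change was small for these genes. Their median log2 change was 0.09 on C57 day 8, −0.15 on day 14 and −0.24 on day 21, against −0.33, −0.20 and −0.21 over all genes. In NZB mice the medians were −0.15, −0.22 and −0.41 on days 8, 14 and 21, against −0.32, −0.35 and −0.06 over all genes. The direction of these calls depends on the scale. Most of the falls were also not called with median-of-ratios scaling. With milk protein mRNA kept in the total, 0 genes rose and 43, 44 and 43 fell in C57 and 0 rose and 43, 43 and 19 fell in NZB on the 3 days, while the median of all genes moved to −1.81 on C57 day 8. With median-of-ratios scaling, 14 rose and 0 fell on C57 day 8, 4 rose and 2 fell on day 14, 4 rose and 1 fell on day 21, and in NZB 5 rose and 1 fell, 2 rose and 2 fell, and 1 rose and 6 fell.

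Single libraries moved these counts by more than 1.5 times. Of 9 calls on C57 day 8, 4 were left without non-lactating C57 mouse 1. Of 10 on C57 day 14, 3, 5 and 4 were left without non-lactating mouse 1, non-lactating mouse 3 or day 14 mouse 3. The 9 on C57 day 21 became 4 without non-lactating mouse 1, non-lactating mouse 3 or day 21 mouse 2, and 15 without non-lactating mouse 2. Without non-lactating NZB mouse 2 the NZB counts of 6, 6 and 10 became 2, 2 and 0, and without mouse 3 they became 13, 12 and 19. The count of 10 on NZB day 21 was also 5 without non-lactating mouse 1, 6 without day 21 mouse 2 and 6 without day 21 mice 1 and 2. Of all 68 calls on the 45 genes over the 14 comparisons made, 19 held when any 1 mouse was left out.

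Ndufc2 and Ndufa1 were the subunits that rose most and most often, without milk proteins in the total and with median-of-ratios scaling, but not on the deposited scale. Both are small subunits of the proximal membrane arm, and Ndufa1 lies on the X chromosome. Their promoters are printed because both genes moved together at the onset of lactation. The sequences are those of RefSeq on GRCm38.p6, from chr7:97399753-97400052 on the plus strand for Ndufc2 and chrX:37191189-37191488 on the minus strand for Ndufa1, with the 50 bases from the RefSeq start site in capitals. That site is the GENCODE start for Ndufc2 and lies 75 bases upstream of it for Ndufa1.
Ndufc2: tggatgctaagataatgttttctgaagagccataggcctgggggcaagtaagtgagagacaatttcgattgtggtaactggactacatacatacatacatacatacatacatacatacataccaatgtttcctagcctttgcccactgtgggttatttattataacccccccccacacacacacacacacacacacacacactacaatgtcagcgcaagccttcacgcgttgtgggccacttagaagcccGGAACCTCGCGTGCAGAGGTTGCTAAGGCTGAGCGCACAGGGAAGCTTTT
Ndufa1: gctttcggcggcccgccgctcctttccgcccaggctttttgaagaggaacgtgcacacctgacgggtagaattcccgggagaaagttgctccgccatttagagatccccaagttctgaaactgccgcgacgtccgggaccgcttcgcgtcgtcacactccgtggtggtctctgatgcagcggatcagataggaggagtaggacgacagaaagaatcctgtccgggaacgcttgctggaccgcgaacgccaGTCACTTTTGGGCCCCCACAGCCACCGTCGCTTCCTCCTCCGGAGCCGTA

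The windows of 250 bases before to 50 after the start were found for 39 of the 45 genes. Both strands were searched for the ETS or GABP motif CCGGAAG, the NRF1 motif GCGCATGCG, the YY1 motif AAGATGGC, the ERR motif CAAGGTCA and the STAT5 motif TTCNNNGAA, the last added after the files were read. The 2 sequences above hold none of them. The YY1 letters were in 7 of the 39 promoters (17.95%), namely those of Ndufa3, Ndufa9, Ndufb8, Ndufc1, Ndufs4, Ndufs6 and Ndufs7, against 4.58% of 11433 promoters of other genes. The NRF1 letters were in 4 (10.26%, against 3.63%), the ETS or GABP letters in 5 (12.82%, against 17.49%), the ERR letters in 1 (2.56%, against 1.41%) and the STAT5 letters in 2 (5.13%, against 8.59%). A match of letters describes the window and is not a binding site.

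For Ndufc2 (chr7:97400003-97407802, GRCm38, plus strand), non-lactating C57 mice had 46.2, 39.0 and 48.2 CPM, and lactating C57 mice had 141, 140.1 and 137 CPM on day 8, 97.8, 127 and 108 on day 14 and 91.4, 145 and 120.0 on day 21. In NZB mice it was 46.4, 43.2 and 27.4 CPM before lactation, 140.5, 140.1 and 137 on day 8, 128, 121 and 109 on day 14 and 64.4, 64.4 and 83.0 on day 21. All 18 lactating mice lay above all 6 non-lactating mice, and NZB day 21 was the lowest lactating group, below every other lactating mouse. The log2 changes were 1.63 ± 0.15 (adjusted p = 4.9e-09), 1.30 ± 0.16 (adjusted p = 9.7e-07) and 1.38 ± 0.18 (adjusted p = 1.2e-06) in C57 on days 8, 14 and 21. In NZB mice they were 1.85 ± 0.20 (adjusted p = 2.4e-07), 1.62 ± 0.21 (adjusted p = 2.2e-06) and 0.87 ± 0.21 (adjusted p = 0.0039), and the last missed the threshold without non-lactating NZB mouse 2 (0.96, adjusted p = 0.073). With milk protein mRNA kept in the total, the C57 changes turned to −0.28, −0.45 and −0.38 and the NZB changes of days 8 and 14 to −0.04 and −0.16, where the medians of all genes were −1.81, −1.59, −1.60, −1.80 and −1.73.

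For Ndufa1 (chrX:37187588-37191163, GRCm38, minus strand), non-lactating C57 mice had 19.0, 10.2 and 16.2 CPM, and lactating C57 mice had 52.8, 62.8 and 49.9 CPM on day 8, 47.7, 55.9 and 36.5 on day 14 and 28.0, 45.7 and 50.2 on day 21. NZB mice had 25.5, 21.5 and 11.6 CPM before lactation, 51.8, 41.9 and 46.5 on day 8, 45.7, 63.8 and 45.7 on day 14 and 21.7, 17.3 and 27.7 on day 21. Days 8 and 14 lay above the non-lactating mice in both genotypes, and in NZB mice day 21 overlapped the non-lactating group again. The changes were 1.83 ± 0.23 (adjusted p = 4.9e-07), 1.58 ± 0.25 (adjusted p = 2.0e-05) and 1.39 ± 0.27 (adjusted p = 2.3e-04) in C57, and 1.28 ± 0.31 (adjusted p = 0.0022) and 1.41 ± 0.32 (adjusted p = 0.0013) in NZB on days 8 and 14. On NZB day 21 the difference was 0.22 ± 0.32 (adjusted p = 0.68). On the deposited scale the 5 called changes turned to −0.04, −0.12, −0.31, −0.56 and −0.34.

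A share of the summed level of the 45 genes does not depend on milk protein mRNA. Ndufc2 made up 3.62 ± 0.13% (SD, n = 3) of that sum in non-lactating C57 mice and 9.77 ± 0.23% on day 8, and 2.48 ± 0.49% in non-lactating NZB mice, 10.2 ± 0.16% on day 8 and 7.05 ± 0.69% on day 21. Ndufa1 went from 1.22 to 3.87% in C57 and from 1.24 to 3.42% in NZB mice by day 8, and stood at 2.22% on NZB day 21. These 2 genes therefore took a larger part of the summed level of the 45 genes in lactating glands on any scale that treats all genes of a library alike.

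**Figure D2:**
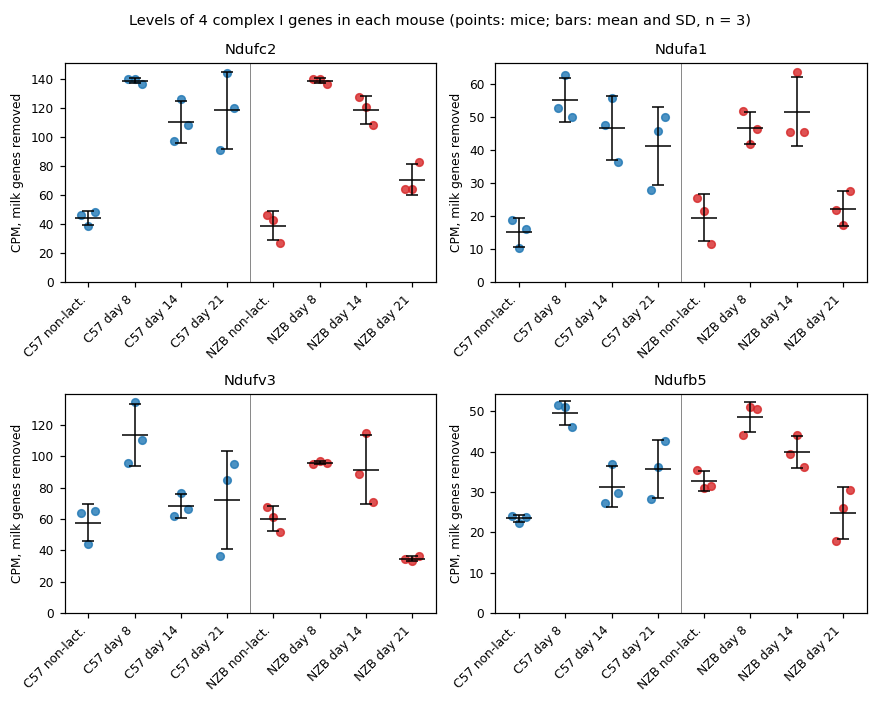
Level in each mouse (CPM without milk protein genes) of Ndufc2, Ndufa1, Ndufv3 and Ndufb5 in the 8 groups, with points for mice and bars for the mean and SD of 3 mice. Day 8 lies above the non-lactating mice in both genotypes in all 4 panels, and NZB day 21 has the lowest mean of the lactating groups; on the deposited scale the C57 day 8 changes of the 4 genes are −0.28, −0.04, −0.94 and −0.82.

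Ndufv3, an accessory subunit of the NADH-oxidising end of the peripheral arm, was high on day 8. For this gene, non-lactating C57 mice had 64.0, 43.9 and 65.1 CPM, and lactating C57 mice had 95.7, 135 and 110.2 CPM on day 8, 62.1, 76.6 and 66.2 on day 14 and 36.6, 85.0 and 94.8 on day 21. The NZB levels were 67.5, 61.4 and 51.7 CPM before lactation, 95.4, 96.8 and 95.7 on day 8, 88.6, 115 and 71.2 on day 14 and 34.3, 33.5 and 36.4 on day 21. All 6 mice of day 8 lay above all 6 non-lactating mice, C57 days 14 and 21 overlapped them, and the 3 NZB mice of day 21 were the lowest of all 24. It rose by 0.97 ± 0.22 (adjusted p = 6.7e-04) on C57 day 8, a call that held without any 1 mouse, although the deposited scale turns it to −0.94. On NZB day 8 and day 21 its differences from non-lactating mice were 0.67 (adjusted p = 0.076) and −0.77 (adjusted p = 0.07).

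Among the distal membrane arm subunits, Ndufb5 and Ndufb9 rose on C57 day 8, again with a lower value on the deposited scale. For Ndufb5, non-lactating C57 mice had 24.2, 22.4 and 23.9 CPM, and lactating C57 mice had 51.5, 51.1 and 46.2 CPM on day 8, 27.3, 36.9 and 29.8 on day 14 and 28.3, 36.2 and 42.8 on day 21. In the NZB mice it was 35.6, 31.0 and 31.5 CPM before lactation, 44.3, 51.0 and 50.5 on day 8, 39.5, 44.2 and 36.3 on day 14 and 17.9, 26.1 and 30.5 on day 21. The 3 C57 groups of lactating mice lay above the non-lactating C57 mice, and NZB day 21 lay below non-lactating NZB mice. Its changes were 1.05 ± 0.16 (adjusted p = 1.2e-05) on C57 day 8 and 0.57 ± 0.19 (adjusted p = 0.023) on C57 day 21, which became −0.82 and −1.12 on the deposited scale. The day 21 call was lost without non-lactating mouse 1 or 3 or day 21 mouse 2 or 3 (adjusted p = 0.076 to 0.14). Exons of Ndufb5 share 616 bases with Mrpl47 on the other strand, whose group means ran from 6.35 to 13.7 CPM, and whether reads were counted by strand is not given in the sources used here. Ndufb9 rose by 0.68 ± 0.22 (adjusted p = 0.012) on C57 day 8 (−1.12 on the deposited scale), a call lost without non-lactating mouse 1 or 3 (adjusted p = 0.079 and 0.075).

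Of the 7 assembly factors, Ndufaf4 and Ndufaf5 rose and Ndufaf7 fell in at least 1 of the 6 comparisons, the rises not on the deposited scale. Ndufaf4, an early-acting factor, had 6.14, 6.18 and 7.62 CPM in non-lactating C57 mice, 12.5, 11.3 and 10.5 on day 8, 10.2, 10.4 and 12.2 on day 14 and 15.4, 14.8 and 8.5 on day 21. In NZB mice it was 7.32, 7.62 and 12.6 CPM before lactation, 13.9, 13.1 and 12.9 on day 8, 9.97, 6.95 and 7.79 on day 14 and 9.23, 9.22 and 9.43 on day 21. The lactating C57 groups lay above the non-lactating C57 mice, and NZB day 8 lay above the other NZB groups, narrowly above non-lactating mouse 3. In C57 it rose by 0.70 ± 0.20 (adjusted p = 0.0046), 0.64 ± 0.22 (adjusted p = 0.021) and 0.83 ± 0.23 (adjusted p = 0.0065), with −0.94, −0.86 and −0.70 on the deposited scale, and each call could be lost with 1 mouse: day 8 without non-lactating mouse 1 (adjusted p = 0.052), day 14 without that mouse (0.12) or day 14 mouse 3 (0.082), and day 21 without day 21 mouse 2 (0.068). Whether the genotypes differed in their change from non-lactating to day 8 was tested, and the difference for Ndufaf4 was −0.18 (adjusted p = 0.92).

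Ndufaf7, a methyltransferase that acts during assembly, went the other way. For it, non-lactating C57 mice had 14.2, 16.8 and 12.5 CPM, and lactating C57 mice had 10.8, 7.62 and 9.97 CPM on day 8, 15.0, 11.8 and 11.3 on day 14 and 11.6, 9.23 and 7.05 on day 21. NZB mice had 15.0, 14.8 and 14.5 CPM before lactation, 11.8, 12.0 and 7.93 on day 8, 7.87, 8.93 and 9.23 on day 14 and 12.3, 16.3 and 15.7 on day 21. C57 days 8 and 21 lay below the non-lactating C57 mice, and in NZB mice day 14 was low and day 21 back at or near the non-lactating level. It fell on C57 day 8 (−0.57 ± 0.20, adjusted p = 0.022) and day 21 (−0.60 ± 0.24, adjusted p = 0.048). With median-of-ratios scaling the day 8 fall was not called. The day 8 call was lost without non-lactating mouse 1 or 3 or day 8 mouse 2 (adjusted p = 0.052 to 0.098), and the day 21 call without any 1 of the 6 mice other than day 21 mouse 1 (0.054 to 0.23). Ndufaf5, which modifies Ndufs7, rose on C57 day 8 (0.71 ± 0.29, adjusted p = 0.046) on the scale without milk proteins and had −0.58 on the deposited one, with groups that overlapped and a call lost without non-lactating mouse 1 or 2 or day 8 mouse 2 or 3 (adjusted p = 0.097 to 0.13). Ndufaf1, Ndufaf2, Ndufaf3 and Ndufaf6 were called in none of the 6 comparisons.

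No core subunit was called higher in any lactating group, and the calls among the 7 were all lower. Without a call, Ndufs7 had 65.3, 70.3 and 77.3 CPM on C57 day 8, above the 58.9, 48.8 and 62.7 CPM of non-lactating C57 mice. Ndufs1, the largest subunit and the carrier of several iron-sulphur clusters, had the highest level. For it, non-lactating C57 mice had 89.3, 96.3 and 108 CPM, and lactating C57 mice had 81.7, 76.9 and 85.2 CPM on day 8, 87.2, 73.0 and 63.5 on day 14 and 82.0, 74.9 and 74.2 on day 21. The NZB levels were 132, 128 and 128 CPM before lactation, 88.8, 92.9 and 111 on day 8, 93.0, 82.3 and 63.9 on day 14 and 84.1, 88.8 and 74.6 on day 21. In both genotypes every lactating mouse lay below every non-lactating mouse. It fell on C57 day 14 (−0.40 ± 0.15, adjusted p = 0.042), NZB day 14 (−0.71 ± 0.19, adjusted p = 0.0058) and NZB day 21 (−0.65 ± 0.19, adjusted p = 0.017). The C57 call was lost without non-lactating mouse 1 or 3 or day 14 mouse 2 or 3 (adjusted p = 0.080 to 0.22), the NZB day 14 call without non-lactating mouse 2 (0.12), and the NZB day 21 call without that mouse (0.24) or day 21 mouse 3 (0.056). Exons of Ndufs1 share up to 489 bases with Eef1b2 or Ino80dos on the other strand. Group means of Eef1b2 ran from 43.5 to 80.5 CPM, and the part of reads from these neighbours in the Ndufs1 values was not tested.

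On NZB day 21, the core subunits Ndufs7, Ndufv1 and Ndufs1 were lower than before lactation. Ndufs7, which holds the last iron-sulphur cluster before ubiquinone, had 73.4, 74.2 and 53.2 CPM in non-lactating NZB mice, 53.7, 61.7 and 69.5 on day 8, 53.4, 64.0 and 53.8 on day 14 and 34.8, 33.8 and 36.5 on day 21. Day 21 was the lowest of the 4 groups with no overlap. Ndufs7 fell by 0.90 ± 0.21 (adjusted p = 0.0028), Ndufv1, which holds the flavin, by 0.77 (0.018) and Ndufs1 as above, and all 3 calls were lost without non-lactating NZB mouse 2 (adjusted p = 0.14 to 0.28). The Ndufv1 call was also lost without mouse 1 of that group (adjusted p = 0.11). In C57 mice Ndufv1 was lower on day 14 (−0.48 ± 0.18, adjusted p = 0.039) and Ndufs3 on day 21 (−0.68 ± 0.23, adjusted p = 0.023), both with overlapping groups. The Ndufv1 call was lost without non-lactating mouse 1 or 3 or day 14 mouse 1 or 3 (adjusted p = 0.098 to 0.21), and the Ndufs3 call without non-lactating mouse 1 or 3 or day 21 mouse 1 (0.11 to 0.15). The 7 core subunits summed to 278 to 352 CPM in non-lactating C57, 328 to 431 CPM in non-lactating NZB and 233 to 254 CPM in NZB day 21 mice.

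Ndufb10, a distal membrane arm subunit, was the gene called lower most often, in 5 of the 6 comparisons. The fall on C57 day 8 was not called with median-of-ratios scaling. For Ndufb10 (chr17:24722060-24724478, GRCm38, minus strand), non-lactating C57 mice had 37.9, 27.5 and 37.8 CPM, and lactating C57 mice had 23.5, 27.5 and 21.8 CPM on day 8, 19.7, 18.9 and 22.3 on day 14 and 14.1, 15.2 and 24.8 on day 21. In the NZB mice it was 38.1, 33.8 and 28.5 CPM before lactation, 17.1, 21.8 and 15.1 on day 8, 17.5, 26.2 and 25.0 on day 14 and 16.03, 16.3 and 15.7 on day 21. Every lactating group lay at or below the lowest non-lactating mouse of its genotype, with the closest approach on C57 day 8. The changes were −0.48 ± 0.19 (adjusted p = 0.041), −0.72 ± 0.21 (adjusted p = 0.0081) and −0.92 ± 0.23 (adjusted p = 0.0021) in C57, and −0.86 ± 0.26 (adjusted p = 0.011) and −1.01 ± 0.27 (adjusted p = 0.0078) on NZB days 8 and 21. The C57 day 21 call held without any 1 mouse. The others did not: C57 day 8 was lost without non-lactating mouse 1 or 3 or day 8 mouse 1 or 3 (adjusted p = 0.079 to 0.22), C57 day 14 without non-lactating mouse 1 or 3 (0.074 and 0.071), and the NZB calls without non-lactating mouse 2 (0.17 and 0.18).

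Ndufa10, a proximal membrane arm subunit related to nucleoside kinases, fell in 4 comparisons. It averaged 81.8 CPM in non-lactating C57 and 103.6 CPM in non-lactating NZB mice, and 57.3 to 65.2 CPM in the lactating groups. The changes were −0.48 on C57 day 21 and −0.64, −0.66 and −0.68 on NZB days 8, 14 and 21 (adjusted p = 0.013 to 0.029). The C57 call was lost without any 1 of its 6 mice other than non-lactating mouse 2 (adjusted p = 0.054 to 0.21), and the NZB calls without non-lactating mouse 1 or 2 (0.061 to 0.30) and, on day 21, without day 21 mouse 2 (0.057). On C57 day 14 the peripheral arm subunits Ndufa5 and Ndufa12 fell by 0.93 and 0.71 and the proximal membrane arm subunit Ndufa13 by 0.61 on the log2 scale, and all 3 calls were lost without non-lactating C57 mouse 1 or day 14 mouse 3, and those of Ndufa12 and Ndufa13 without non-lactating mouse 3 (adjusted p = 0.084 to 0.20). Reads of Ndufa5 were few, with 79, 28 and 58 in non-lactating C57 mice and 16, 12 and 8 on C57 day 14. Ndufs5 fell by 1.01 on NZB day 21, a call lost without non-lactating mouse 1 or 2 or day 21 mouse 1 or 2 (adjusted p = 0.053 to 0.34).

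Ndufb2, a distal membrane arm subunit, had the highest CPM of the 45 genes and set non-lactating NZB mice apart. For Ndufb2 (chr6:39592574-39603382, GRCm38, plus strand), non-lactating C57 mice had 115, 184 and 94.1 CPM, and lactating C57 mice had 161, 83.5 and 106 CPM on day 8, 133, 108 and 169 on day 14 and 164, 121 and 163 on day 21. In NZB mice it was 251, 299 and 437 CPM before lactation, 139.6, 156 and 74.8 on day 8, 95.3, 169 and 130.0 on day 14 and 112, 103 and 50.4 on day 21. The 3 non-lactating NZB mice were the highest of all 24, and the other groups overlapped one another, except C57 day 21 and NZB day 21. The fall was −1.43 ± 0.42 (adjusted p = 0.0092) on NZB day 8, −1.32 ± 0.43 (adjusted p = 0.019) on day 14 and −1.93 ± 0.43 (adjusted p = 0.0023) on day 21, while the C57 differences were −0.16, 0.10 and 0.23 and passed no test. In a direct test the non-lactating genotypes differed by 1.34 ± 0.44 (adjusted p = 0.12), and the NZB change to day 8 less the C57 change was −1.27 (adjusted p = 0.33). Ndufb2 made up 21.5% of the summed level of the 45 genes in non-lactating NZB mice and 8.23 to 12.6% in the other 7 groups.

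Markers of other cell types were also high in some of those mice. Non-lactating NZB mice 1, 2 and 3 had summed levels of 12.7, 476 and 1059 CPM for 6 B cell markers, 12.2, 132 and 818 CPM for 6 T cell markers and 108, 22.1 and 901 CPM for 10 skeletal muscle markers, against at most 105 CPM for the B cell sum and 68.9 CPM for the T cell sum in any mouse of another group. The muscle sum was 423 and 1416 CPM in NZB day 21 mice 1 and 2 and at most 77.5 CPM in the other 19 mice. Ndufb2 and the B cell sum were both lowest in mouse 1 and highest in mouse 3 of the non-lactating NZB group, and the muscle sum was lowest in mouse 2. These are orders of 3 mice per group. On NZB day 14 the B cell sum was highest in mouse 1 (105 CPM), where Ndufb2 was lowest in that group (95.3 CPM). Non-lactating NZB mouse 1 had 250.9 CPM of Ndufb2, above all 21 mice outside its group, and the part of other cell types in these levels was not tested. With non-lactating NZB mice 2 and 3 both left out, which leaves 1 mouse in that group, the Ndufb2 changes were −1.08, −0.97 and −1.58. Without mouse 2 alone the 3 Ndufb2 calls were lost (adjusted p = 0.13, 0.19 and 0.087). The day 14 call was also lost without day 14 mouse 1 (0.059). Exons of Ndufb2 share up to 156 bases with Braf or other genes, and Braf group means ran from 109 to 162 CPM, with 134 CPM in non-lactating NZB mice. The part of reads from these genes in the Ndufb2 values was not tested.

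**Figure D3:**
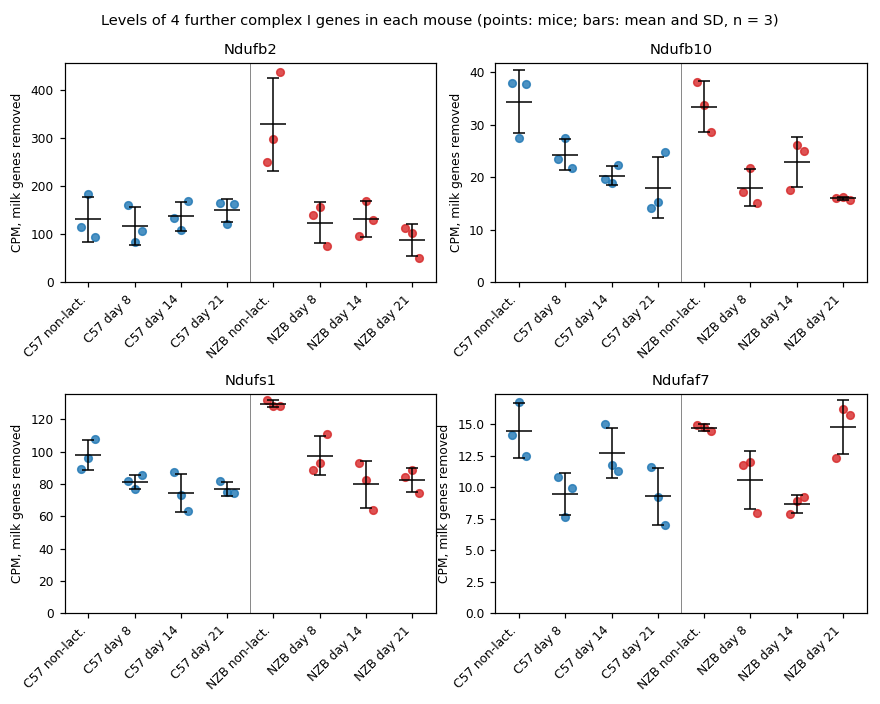
Level in each mouse (CPM without milk protein genes) of Ndufb2, Ndufb10, Ndufs1 and Ndufaf7 in the 8 groups, with points for mice and bars for the mean and SD of 3 mice. Ndufb2 is high in the 3 non-lactating NZB mice, 251 to 437 CPM, and Ndufb10 and Ndufs1 are highest before lactation in both genotypes.

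Ndufab1, the mitochondrial acyl carrier protein that also serves fatty acid synthesis inside mitochondria, was called in no comparison. For it, non-lactating C57 mice had 32.3, 43.1 and 31.7 CPM, and lactating C57 mice had 33.2, 24.5 and 37.2 CPM on day 8, 35.3, 29.7 and 32.0 on day 14 and 31.2, 29.8 and 25.1 on day 21. NZB mice had 37.3, 43.3 and 45.7 CPM before lactation, 31.7, 47.5 and 37.2 on day 8, 34.3, 24.6 and 25.7 on day 14 and 34.8, 38.7 and 28.5 on day 21. All groups overlapped at least 1 other, and the range over all 24 mice was 24.5 to 47.5 CPM.

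Ndufa4, once listed with complex I and now counted as a subunit of cytochrome c oxidase, fell on C57 day 21 alone among the 6 comparisons. For it, non-lactating C57 mice had 60.3, 37.8 and 63.7 CPM, and lactating C57 mice had 37.2, 45.6 and 37.0 CPM on day 8, 41.0, 40.8 and 28.0 on day 14 and 27.8, 36.3 and 33.6 on day 21. The NZB levels were 63.9, 57.6 and 33.0 CPM before lactation, 41.9, 40.4 and 44.0 on day 8, 34.4, 32.7 and 44.1 on day 14 and 41.0, 35.2 and 63.7 on day 21. C57 day 21 lay just below the lowest non-lactating C57 mouse, with a change of −0.68 ± 0.25 (adjusted p = 0.032), and the NZB groups overlapped. The call was lost without any 1 of the 6 mice other than non-lactating mouse 2 (adjusted p = 0.067 to 0.18). Its hypoxia-inducible paralogue Ndufa4l2 was barely detected, with 33, 14 and 32 reads in the non-lactating C57 mice, 1, 1 and 0 on C57 day 14, and 68, 41 and 20 in non-lactating NZB mice. It was called lower on C57 day 14 and on all 3 NZB days, but with 2 to 16 reads in each of the other lactating mice no fold is given. The C57 call held without any 1 mouse, and the NZB calls were lost without non-lactating mouse 1 or 2, on day 8 without day 8 mouse 3 and on day 21 without day 21 mouse 2 or 3 (adjusted p = 0.054 to 0.31).

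Genotypes were compared at each stage to ask whether NZB and C57 glands differed in these genes. None of the 45 was called in non-lactating mice (limma, 3 at an unadjusted p under 0.05, against 2.35% of all genes called), on day 8 (1 unadjusted, against 0.149%) or on day 14 (2 unadjusted, against 0.0496%), and limma voom on the recovered reads also called 0 in each. The median difference was 0.19, −0.07 and 0.23, against 0.09, 0.12 and 0.02 over all genes. Nor did any differ between genotypes in the change from non-lactating to day 8 (0 by limma and by voom, 2 unadjusted, against 0.756% of all genes). On day 21, 4 of the 45 were lower in NZB mice and 0 higher, against 24.7% of all genes called (19.1% higher and 5.63% lower in NZB).

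All 4 were among the 7 genes called higher in a lactating group. For Ndufc2, Ndufa1 and Ndufb5 those calls include C57 day 21, whose mice enter both comparisons, so the calls are not independent. On day 21 Ndufc2 differed by −0.73 ± 0.17 (adjusted p = 0.0038), Ndufv3 by −0.92 ± 0.25 (adjusted p = 0.01), Ndufa1 by −0.85 ± 0.27 (adjusted p = 0.022) and Ndufb5 by −0.52 ± 0.19 (adjusted p = 0.048) in NZB less C57. On the deposited scale the signs turned to 0.63, 0.42, 0.47 and 0.78, where the median of all genes was 1.35. The count depended on single mice and was 0 without C57 day 21 mouse 2, 1 without C57 day 21 mouse 3 or NZB day 21 mouse 2, and 9 without C57 day 21 mouse 1. Without both NZB day 21 mice 1 and 2 none of the 4 was called (adjusted p = 0.14 to 0.65). Compared in a fit of these 2 groups alone, 1 of the 45 was called, and with median-of-ratios scaling 7 were lower and 0 higher.

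Late lactation separated the genotypes further. From day 14 to day 21, 8 of the 45 fell and 1 rose in NZB mice, 20.0% against 28.6% of all genes (21.6% higher and 7.05% lower), and the median change was −0.31 against 0.29 over all genes. For 20 of the 45 the 3 NZB mice of day 21 lay below the 3 of day 14, and for 1 above, against 10.3% of all genes tested below and 32.2% above. In C57 mice 0 were called (limma and voom, 2 at an unadjusted p under 0.05, against 0% of all genes), with a median of 0.05 against −0.02. The NZB split of 1 higher and 8 lower became 37 higher and 0 lower on the deposited scale, where the median of all genes was 1.36, and 0 higher and 15 lower with median-of-ratios scaling. Without NZB day 14 mouse 2 or NZB day 21 mouse 2 the count was 5. Without both NZB day 21 mice with high skeletal muscle markers (mice 1 and 2), which leaves 1 mouse assumed to vary like the other groups, it was 1, Ndufv3 at −1.28 (limma, adjusted p = 0.021). The 8 falls had the same sign there.

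The strongest NZB change was that of Ndufv3, whose values above went from 71.2 to 115 CPM on day 14 to 33.5 to 36.4 CPM on day 21. Its log2 change was −1.35 ± 0.23 (adjusted p = 1.9e-04), followed in order of adjusted p by Ndufa1 at −1.19 ± 0.24 (adjusted p = 9.9e-04), Ndufc2 at −0.75 ± 0.16 (adjusted p = 0.0012) and Ndufs7 at −0.68 ± 0.16 (adjusted p = 0.0025). Ndufb5 also fell (−0.69 ± 0.17, adjusted p = 0.0048), and these 5 calls held without any 1 mouse. Ndufb9, the core subunit Ndufs8 and Ndufa2 fell by 0.78, 0.82 and 0.91, calls that were lost without day 14 mouse 2 or day 21 mouse 2, for Ndufb9 without day 14 mouse 3 and for Ndufa2 without day 14 mouse 1 (adjusted p = 0.051 to 0.25). On the deposited scale the 8 signs turned positive, from 0.05 for Ndufv3 to 0.69 for Ndufs7. Ndufaf7 was the 1 gene that rose (0.70 ± 0.21, adjusted p = 0.018), a call lost without any of NZB day 14 mice 1 and 2 and day 21 mice 2 and 3 (adjusted p = 0.051 to 0.12).

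In C57 mice none of these genes was called over that week. Ndufv3, Ndufa1, Ndufc2 and Ndufb5 differed by −0.03, −0.19, 0.08 and 0.18 between day 14 and day 21. Opposite to NZB mice and without a call, the C57 mean of Ndufa13 went from 12.2 to 18.5 CPM and that of Ndufaf7 from 12.7 to 9.29 CPM. The difference between the genotypes' changes was tested directly and called for 5 of the 45, 1 higher and 4 lower in NZB, against 7.93% of all genes (5.25% higher and 2.68% lower). It was −1.32 ± 0.34 (adjusted p = 0.021) for Ndufv3, −0.83 ± 0.23 (adjusted p = 0.031) for Ndufc2, −0.87 ± 0.26 (adjusted p = 0.04) for Ndufb5, −1.01 ± 0.31 (adjusted p = 0.045) for Ndufa13 and 1.13 ± 0.32 (adjusted p = 0.033) for Ndufaf7. The first 4 turn to 0.08, 0.57, 0.50 and 0.35 on the deposited scale, where the median of all genes is 1.38. The count of 5 was 0 without C57 day 14 mouse 1, C57 day 21 mouse 2 or 3, or NZB day 14 or 21 mouse 2, was 1 without NZB day 14 mouse 1, 2 without C57 day 14 mouse 3, 3 without NZB day 21 mouse 1 and 10 without C57 day 21 mouse 1, and 0 without both NZB day 21 mice 1 and 2. In a fit of these 4 groups alone it was 0, without sample weights 3, and with the R1 columns alone 3. With milk protein genes kept in the total, 24 were higher and 0 lower, and with median-of-ratios scaling 0 higher and 4 lower.

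**Figure D4:**
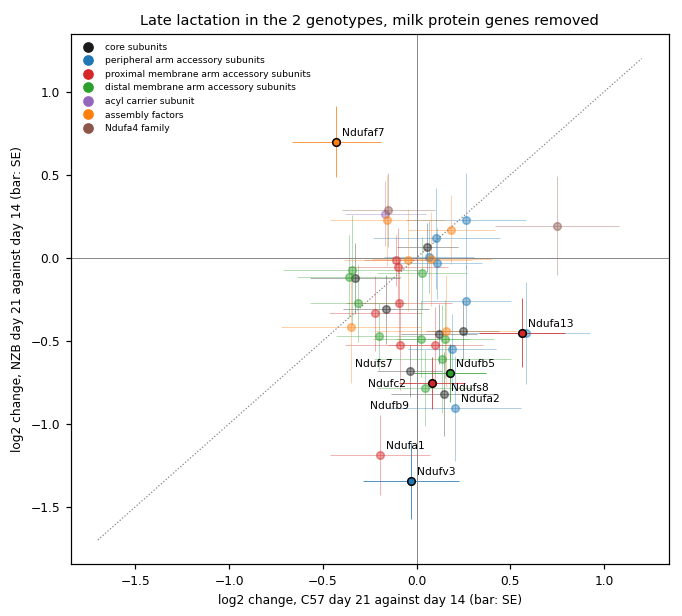
Change from lactation day 14 to day 21 (log2, scale without milk protein genes) in C57 mice on the x axis and NZB mice on the y axis, 1 point for each of the 45 genes, coloured by role, with bars for the SE and black outlines for the 5 whose genotype difference was called. Most points lie below 0 in NZB mice (median −0.31) and around 0 in C57 mice (median 0.05); on the deposited scale 37 genes were called higher in NZB.

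The other respiratory chain genes were listed for comparison. Of 36 nuclear subunits of complexes II to V, 11 rose and 2 fell on C57 day 8 (median 0.28, against −0.33 over all genes, of which 14.8% rose and 36.8% fell), with Atp5g1, a gene for the membrane ring of ATP synthase, at 1.62 ± 0.16 and Sdha and Sdhc, subunits of succinate dehydrogenase, at −0.76 and −0.79. From NZB day 14 to day 21, 14 of the 36 fell and 0 rose (median −0.41, against 0.29 over all genes, of which 7.05% fell and 21.6% rose), among them Cox6a1 at −1.32, Atp5g1 at −1.26, Uqcr11 at −1.19 and Cox5a at −1.07. Atp5g1 was also the 1 gene of that list whose late change differed between genotypes (−1.22, adjusted p = 0.0052). With milk protein genes in the total, 0 of the 36 rose and 35 fell on C57 day 8 (Atp5g1 at −0.25), 30 rose and 0 fell from NZB day 14 to day 21, and the Atp5g1 difference between genotypes was 0.15. Fits without single mice were made for the Nduf genes only.

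Of 8 further complex I assembly factors not named Nduf, few were called. Timmdc1 rose on C57 day 8 (0.48, but −1.28 on the deposited scale). Foxred1 fell on NZB day 14 (−0.75) and day 21 (−0.90), and Ecsit fell on NZB day 21 (−0.97) and from day 14 to day 21 (−0.61, but 0.65 on the deposited scale). Nubpl was higher in NZB than in C57 mice on day 21 (0.72). Among 9 regulators, Ppargc1a, a coactivator of mitochondrial genes that is high in fat and muscle, fell in all 6 comparisons with non-lactating mice, by 1.71 to 1.93 in C57 and by 2.29 to 2.75 in NZB on the log2 scale. Its relative Pprc1 rose on C57 and NZB day 8 (1.15 and 0.73, but −0.76 and −1.15 on the deposited scale).

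Of the 7 complex I subunits encoded by mitochondrial DNA, at most 2 were called in any comparison, all of them lower on the scale without milk proteins. Here mt-Nd5 and mt-Nd6 fell on C57 day 8 (−0.91 and −0.86) and day 14 (−0.91 and −0.73). In NZB less C57 mice, mt-Nd3 was lower on day 14 (−1.76) and day 21 (−1.64) and mt-Nd1 on day 21 (−0.81, but 0.57 on the deposited scale). The mitochondrial DNA itself differs between the genotypes, and its part in these values was not tested.

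Within groups, most Nduf genes rose and fell together from mouse to mouse. Across the 24 mice, the deviation of a gene from its group mean was set against the median deviation of the other 44. The median r was 0.64, 26 of 45 had r above 0.5, and the highest was Ndufa1 at 0.92. For 7 genes r was negative: Ndufb2 (−0.65), Ndufaf4 (−0.63) and Ndufab1 (−0.56), with Ndufb7 (−0.41), Ndufaf7 (−0.30), Ndufaf2 (−0.09) and Ndufs1 (−0.01). These are descriptions over libraries that share their totals, with no test. The same r was not computed for sets of other genes, so the 26 of 45 have no background share beside them. The mice with most genes below their group mean were C57 day 14 mouse 3 (41 of 45), non-lactating NZB mouse 3 (38) and non-lactating C57 mouse 2 (35).

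Transcript length moved with this pattern. A longer transcript went with a lower r over the 45 genes (r = −0.47 between log2 length and co-variation). Over the 24 mice, the median deviation of the 45 genes went with the deviation of other short genes (under 800 bases) less that of other long genes (over 2000 bases), with r = 0.80. From NZB day 14 to day 21, the 20 Nduf genes under 800 bases had a median change of −0.46 and the 6 over 2000 bases one of 0.12, while 623 other short genes and 9964 other long genes had 0.11 and 0.32. On C57 day 8 the short and long Nduf genes had 0.26 and −0.22, and the other genes −0.14 and −0.36. The part of library or RNA quality in these values was not tested.

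**Figure D5:**
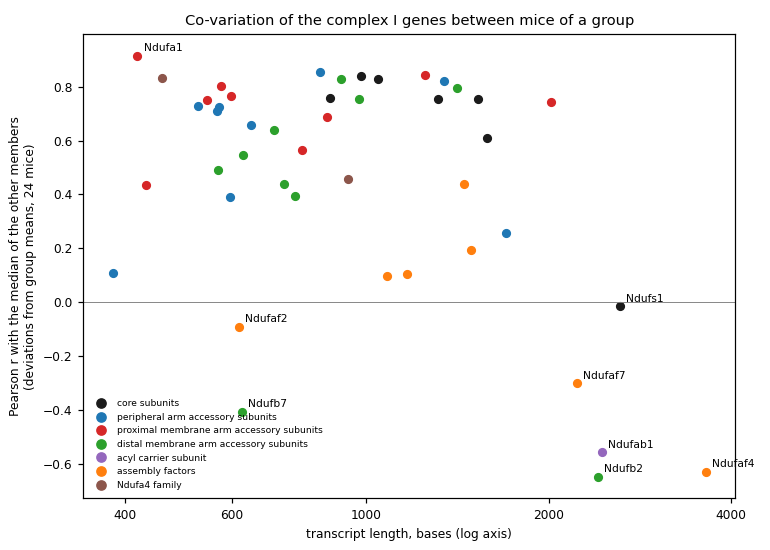
Co-variation of each of the 45 genes with the median of the others (Pearson r of within-group deviations over 24 mice, y axis) against transcript length (bases, log scale, x axis), coloured by role. Ndufa1 (419 bases) lies highest at 0.92, and Ndufb2, Ndufaf4 and Ndufab1 lie below −0.5. The shortest, Ndufa6 (382 bases), lies at 0.11.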

How the data were processed

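The authors deposited 1 table of log10(CPM + 1) values with 2 columns (R1 and R2) per mouse. The submitters' processing notes name GRCm38 and mm10. Aligner, counting tool and strand setting are not given in those sources. Values were turned back to CPM, where 100% of the values below 1000 reads in every column were whole multiples of 1 read (tolerance 0.05 reads), and the columns of a mouse were averaged. R1 and R2 differed by no more than sampling noise (chi-square per gene at most 1) in 22 of 24 mice, and in every mouse they count as 1 sample. The 17 milk protein genes were removed and the rest rescaled to CPM.

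Genes above 1 CPM in at least 3 mice were fitted with limma 3.58.1 (R 4.3.3) on log2(CPM + 1), with a mean-variance trend, a weight per group and 8 group means. The 14 comparisons were adjusted by Benjamini-Hochberg within each, 2-sided, threshold 0.05. On simulated counts the steps were tested before use. Positions and lengths are from GENCODE release M21, and promoters from RefSeq on GRCm38.p6. Depth was 7031812 to 24253128 reads per mouse, and the lowest library, non-lactating C57 mouse 2, had 2174916 reads in R1 and 11888708 in R2.

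The genes were taken by symbol, and 1 of the 45 stays in the counts but is not reported here by itself. Values per mouse are given for the gene with the highest mean in each role, for Ndufab1, Ndufa4 and Ndufa4l2, and, chosen after their values were seen, for Ndufa1, Ndufb5, Ndufaf4, Ndufs7 and Ndufb10. From other lists, up to 4 genes with the smallest adjusted p are named. The genes and lists were chosen with earlier results of these data known. Alternatives were other scalings (deposited totals, median of ratios), limma voom on recovered reads, a replicate block, no weights, R1 alone, the compared groups alone, a pseudocount of 0.1, other filters on low genes, leaving out each mouse, and, chosen after seeing the data, leaving out NZB day 21 mice 1 and 2.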

Additional observations from a re-analysis of the deposited data

Results flagged for a closer look

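For 5 of the 45 genes the change from day 14 to day 21 differed between the genotypes by the test of that difference itself (limma, adjusted p = 0.021 to 0.045). The NZB change less the C57 change was −1.32 for Ndufv3, −0.83 for Ndufc2, −0.87 for Ndufb5, −1.01 for Ndufa13 and 1.13 for Ndufaf7. Each of the 5 was lost without at least 5 of the 12 mice of these groups, taken 1 at a time. Groups of 3 mice are too small for a search for outlying samples.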

How the results depend on the processing

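The counts below are of the 45 genes called in either direction. On the deposited scale, with milk protein genes in the total, they were 43, 44 and 43 on C57 days 8, 14 and 21 and 43, 43 and 19 on NZB days 8, 14 and 21 against non-lactating mice, 37 for NZB against C57 on day 21, 37 for NZB day 21 against day 14 and 24 for the genotype difference of that change. With median-of-ratios scaling, milk genes kept or removed, they were 14, 6 and 5 on C57 days 8, 14 and 21, 7 for the genotypes on day 21 and 15 for NZB day 21 against day 14. Fitted in the compared groups alone, they were 5 on C57 day 14, 5 on C57 day 21, 1 for the genotypes on day 21 and 0 for the genotype difference of the late change. Without sample weights they were 10 on NZB day 8, 1 between non-lactating genotypes and 3 for the late difference, which was also 3 with R1 alone. The remaining counts under these settings, voom, the other pseudocount and the other filters lay within 1.5 times those reported. Apart from the compositions that these scalings and smaller fits set by construction, the cause was not tested.

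With median-of-ratios scaling, milk genes kept or removed, 21 of the 68 calls were lost. On the deposited scale 34 of the 68 calls turned sign, and under the other settings none did. On C57 day 8 these were Ndufa1 −0.038, Ndufaf4 −0.94, Ndufaf5 −0.58, Ndufb5 −0.82, Ndufb9 −1.12, Ndufc2 −0.28 and Ndufv3 −0.94. On C57 day 14 they were Ndufa1 −0.12, Ndufaf4 −0.86 and Ndufc2 −0.45, and on day 21 Ndufa1 −0.31, Ndufaf4 −0.70, Ndufb5 −1.12 and Ndufc2 −0.38. On NZB day 8 they were Ndufa1 −0.56 and Ndufc2 −0.042, and on day 14 Ndufa1 −0.34 and Ndufc2 −0.16. For the genotypes on day 21 they were Ndufa1 0.47, Ndufb5 0.78, Ndufc2 0.63 and Ndufv3 0.42. For NZB day 21 against day 14 they were Ndufa1 0.19, Ndufa2 0.35, Ndufb5 0.66, Ndufb9 0.51, Ndufc2 0.65, Ndufs7 0.69, Ndufs8 0.48 and Ndufv3 0.050. For the late genotype difference they were Ndufa13 0.35, Ndufb5 0.50, Ndufc2 0.57 and Ndufv3 0.085.

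Leaving out each mouse gave ranges of 4 to 12, 3 to 15 and 4 to 15 on C57 days 8, 14 and 21, 2 to 13, 2 to 12 and 0 to 19 on NZB days 8, 14 and 21, 0 to 1, 0 to 0, 0 to 0 and 0 to 9 between the genotypes in non-lactating, day 8, day 14 and day 21 mice, 0 to 0 for C57 day 21 against day 14, 5 to 11 for NZB, 0 to 10 for the late difference and 0 to 0 for the difference at onset. Over these fits a call was kept 286 times and lost 152 times. Leaving out both non-lactating NZB mice 2 and 3 left 1 mouse in that group, assumed to vary like the other groups. Counts from that fit are not given, and 0 calls reversed in it. Without both NZB day 21 mice 1 and 2, chosen after seeing the data, the counts were 6 for NZB day 21 against non-lactating, 1 against C57 day 21, 1 against NZB day 14 and 0 for the late difference, with 7 of 28 calls kept and 0 reversed.

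With the replicate number as a replicate block, the counts were 8, 10 and 8 on C57 days 8, 14 and 21, 6, 6 and 9 on NZB days 8, 14 and 21, 0, 0, 0 and 4 between genotypes, 0 and 9 for day 21 against day 14 in C57 and NZB, 5 for the late difference and 0 at onset, and 3 of 68 calls were lost. The numbers share only a name: deviations of same-numbered mice correlated with a median r of 0.009 over 84 pairs, against 0.002 over 168 others. Depth limits the low genes Ndufa4l2, Ndufaf2, Ndufaf5 and Ndufb3, which had 0 to 68 reads per mouse, and Ndufa5, which had 8 to 79.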
